A study of Mus musculus with 4 samples.

Results

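The regions described here are open chromatin sites inside protein-coding genes that were narrower than 1000 bp and were found in every library of the study. Peaks of the 4 libraries on chromosomes 1 to 19 and X were merged wherever they shared at least 1 bp. A merged region was kept when it overlapped a peak of all 4 libraries, overlapped a protein-coding gene body of RefSeq (mouse build GRCm38), and lay more than 1 kb from both ends of every such gene. This gave 35446 intragenic regions out of 171490 merged regions, or 20.7%. The regions were thus chosen by the peak calls of both genotypes, and their number and their presence in each library are descriptions, and a site that lost its peak in KO cells could not be among them.

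Omni-ATAC-seq marks open DNA by the cuts of Tn5 transposase, and it was run on immature γδ thymocytes of the fetus, a source of the T cells that make IL-17. The KO group (2 libraries) carried Maf fl/fl with Il7r-Cre, and the WT group (2 libraries) carried Maf+/+ with the same Il7r-Cre, so the Cre was shared by both. Fetuses of embryonic day 17 to 18 on a C57Bl/6 background (5 generations of backcross) were pooled, and thymocytes without CD4 and CD8 that carried CD3e, TCRgd and CD24 with low CD45RB were sorted for each library. Cre driven by Il7r acts in lymphoid precursors, well before this stage, and whether the libraries KO 1 and KO 2, or WT 1 and WT 2, are separate pools of fetuses is not in the labels. All p-values therefore measure only the spread between these libraries, some or all of which may be technical.

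Open sites inside genes are mostly enhancers, which are bound by transcription factors and act on promoters from introns or from neighbouring genes, with a smaller part formed by internal promoters that start shorter transcripts. c-Maf, the product of Maf, is a basic leucine zipper factor that binds DNA at Maf recognition elements and is needed for γδ T cells that make IL-17. Other factors of such cells are RORα, SOX13, SOX5 and PLZF, with T-bet as the counterpart in cells that make interferon-γ.

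Sequence could be read only where an intragenic region held an annotated transcript start, from RefSeq promoter windows of GRCm38. The 3 regions first shown are the tallest ones, on average over libraries, that held a start of their own gene and the whole stretch upstream of it. The other 3 also held such a start and were chosen as lower (Runx1 and Proca1) or higher (Kcnh2) in both KO libraries than in both WT libraries. Each stretch is the 250 bases upstream of the start, 5′ to 3′ on the strand of the transcript. They are, on the plus strand, Rfx1 at chr8:84066586-84066835, Tarbp2 at chr15:102517942-102518191, Rps6ka2 at chr17:7169865-7170114 and Proca1 at chr11:78194452-78194701. On the minus strand they are Runx1 at chr16:92697330-92697579 and Kcnh2 at chr5:24329592-24329841. Capitals mark the NFY motif CCAAT and the SP motif GGGCGG, searched on both strands, so that ATTGG and CCGCCC are the same motifs on the other strand. Where matches overlap, as in Tarbp2, only the first is in capitals.
Rfx1: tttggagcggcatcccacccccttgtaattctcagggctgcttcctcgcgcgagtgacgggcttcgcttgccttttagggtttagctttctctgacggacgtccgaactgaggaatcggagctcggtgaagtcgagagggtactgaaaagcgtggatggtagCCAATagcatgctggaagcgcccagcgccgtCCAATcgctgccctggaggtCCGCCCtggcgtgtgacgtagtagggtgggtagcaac
Tarbp2: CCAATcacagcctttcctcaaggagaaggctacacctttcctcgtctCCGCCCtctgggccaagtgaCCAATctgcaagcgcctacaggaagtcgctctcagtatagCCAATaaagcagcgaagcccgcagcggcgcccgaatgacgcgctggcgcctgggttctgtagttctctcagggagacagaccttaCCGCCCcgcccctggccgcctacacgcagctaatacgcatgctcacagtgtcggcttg
Rps6ka2: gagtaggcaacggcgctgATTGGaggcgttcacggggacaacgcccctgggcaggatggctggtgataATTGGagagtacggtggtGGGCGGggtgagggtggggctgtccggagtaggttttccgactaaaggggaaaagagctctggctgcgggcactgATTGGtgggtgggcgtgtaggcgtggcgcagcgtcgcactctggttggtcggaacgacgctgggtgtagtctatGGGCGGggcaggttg
Runx1: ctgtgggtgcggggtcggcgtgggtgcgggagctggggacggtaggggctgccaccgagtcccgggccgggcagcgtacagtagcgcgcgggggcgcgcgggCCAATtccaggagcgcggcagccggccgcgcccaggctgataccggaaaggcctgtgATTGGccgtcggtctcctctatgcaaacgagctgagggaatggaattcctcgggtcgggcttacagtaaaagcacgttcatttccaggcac
Proca1: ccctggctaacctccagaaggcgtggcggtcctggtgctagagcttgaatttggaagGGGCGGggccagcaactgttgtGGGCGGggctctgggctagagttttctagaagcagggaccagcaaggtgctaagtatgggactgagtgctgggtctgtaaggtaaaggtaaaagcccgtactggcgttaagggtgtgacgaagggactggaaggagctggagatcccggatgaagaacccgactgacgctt
Kcnh2: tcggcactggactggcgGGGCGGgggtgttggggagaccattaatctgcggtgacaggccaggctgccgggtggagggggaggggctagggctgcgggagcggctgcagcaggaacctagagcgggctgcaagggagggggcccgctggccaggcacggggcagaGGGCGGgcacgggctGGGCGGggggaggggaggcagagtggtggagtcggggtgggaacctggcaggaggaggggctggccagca
The midpoint of the region of Rfx1, which encodes a regulatory factor X protein, lay 3.08 kb from the 5′ end of the gene, and that of Tarbp2, a partner of Dicer, lay 2.24 kb from it. The region of Rps6ka2, a ribosomal S6 kinase gene, lay 81.0 kb inside. Their regions reached a −log10 q (the authors' significance of the strongest peak) of 460.2 and 476.7 in the KO libraries and 385.3 and 588.2 in the WT libraries at Rfx1, so both genotypes held a very tall peak. At Tarbp2 the values were 439.3 and 495.8 in KO and 365.3 and 573.7 in WT. The start of Runx1, a transcription factor of blood and T cell development, is that of its proximal promoter, and the region around it lay 128.6 kb from the 5′ end.

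Peak heights are set against the background of their own library, so a region was compared between libraries by its rank. The rank percentile is the place of its strongest peak, by −log10 q, among the 78650 regions called in all 4 libraries, from 0 (lowest) to 100 (highest). At the Runx1 start the percentiles were 46.6 and 59.5 in KO and 72.8 and 68.8 in WT, and both KO values lay below both WT values. The Proca1 region had 7.97 and 23.0 in KO and 39.1 and 24.0 in WT, where the second libraries nearly met. The Kcnh2 region, in a potassium channel gene, had 38.8 and 45.0 in KO and 20.4 and 18.8 in WT, so KO was higher in both.

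Inside genes, shared open sites were small and of middling height. Their median width was 258 bp (quartiles 195 and 356 bp), against 385 bp for the 15644 shared regions under 1000 bp that lay within 1 kb of a coding gene end and 253 bp for the 26997 outside coding genes. The median rank percentile was 45.2 and 45.6 in KO 1 and KO 2 and 45.8 and 45.6 in WT 1 and WT 2. At gene ends it was 70.7 and 69.9 in the KO libraries and 70.5 and 70.8 in the WT libraries, far above the intragenic value in each. Intragenic regions lay 24.9 ± 0.526 percentile points below gene ends (SD over 4 libraries; lower in 4 of 4; exact 2-sided sign-flip permutation p = 0.125, the smallest that 4 libraries allow). The difference was smaller with regions under 500 bp (−15.1 points) and with regions more than 5 kb from gene ends (−13.9 points). Against regions outside genes the difference was −0.470 ± 0.897 points, with both signs among the libraries (exact sign-flip permutation p = 0.375).

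**Figure D1:**
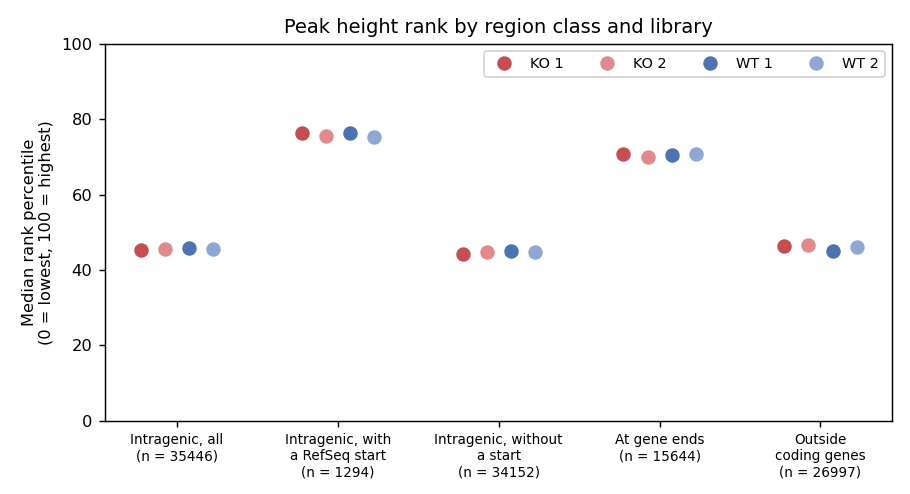
Median rank percentile (vertical axis, 0 to 100) of each region class in each library, with the KO libraries left of the WT libraries; a point is 1 library. All intragenic regions sat between 45.2 and 45.8, regions at gene ends between 69.9 and 70.8, and intragenic regions with a RefSeq start between 75.3 and 76.3.

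Of the 78087 shared regions under 1000 bp, 45.4% were intragenic by this rule (exact 95% Clopper-Pearson interval 45.0 to 45.7, counting error only), while the interiors of coding genes made up 986 Mb, or 37.5% of the 2631 Mb considered. The share hardly followed the number of libraries that called a region: once regions at gene ends were set aside, it was 53.9%, 56.8%, 56.3% and 56.8% for regions called in 1, 2, 3 and 4 libraries. A further 127 shared regions inside genes were 1000 bp or wider. The intragenic regions took 28.1% of the peaks in KO 1 and 30.02% in KO 2, against 35.8% in WT 1 and 27.2% in WT 2. WT 1 stood highest and WT 2 lowest, so the groups overlapped (KO minus WT −2.43 points; exact 2-sided permutation p = 1, where 2 libraries against 2 allow no p below 0.333). Without WT 1, which had the shortest peak list, the difference was 2.13 points (exact permutation p = 0.667).

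In the libraries themselves, the lists held 130935 (KO 1), 120141 (KO 2), 102718 (WT 1) and 132179 (WT 2) peaks on these chromosomes. The read totals are not known here. The background pileup computed from the lists was 0.88 and 0.76 in KO and 1.57 and 1.38 in WT, so it separated the genotypes, and its part in any difference between KO and WT below was not tested. The median −log10 q of intragenic regions was 16.2 and 20.8 in KO and 11.5 and 23.9 in WT, and the median fold enrichment over background (the authors' ratio) was 9.06 and 10.4 in KO and 6.83 and 9.79 in WT. WT 1 was the lowest of the 4 in both. Peaks with a −log10 q under 5 made up 10.1% and 5.27% of the regions in KO and 19.6% and 4.62% in WT.

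The rule asked for peaks of all 4 libraries in a merged region under 1000 bp, so a shared stretch was largely fixed in advance. In 34961 of the regions (98.6%) the strongest peaks of all 4 libraries shared a base, and in 33188 (93.6%) each library had a single peak. Summit positions were not used to choose the regions, but the overlap of the peaks limits how far apart summits can lie. Between the 2 KO libraries the median distance between summits was 15 bp, between the 2 WT libraries 16 bp, and between a KO and a WT library 14 to 18 bp. Pairs of different genotype were 0.5 bp farther apart than pairs of the same genotype (exact permutation over the 3 ways to pair the libraries, p = 0.333, the smallest possible). That sign rests on single libraries, since the difference was 0 bp without KO 1 and −1 bp without WT 1. All 4 summits fell within 50 bp in 59.3% of the regions, with a median spread of 42 bp.

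A small group of intragenic regions held an annotated transcript start, and these ranked higher than the rest, although most of the tall regions held none. There were 1294 (3.65%), of which 1131 held a start of the gene they lay in and 163 only a start of another gene or transcript unit. Their median percentile was 76.3 and 75.5 in KO and 76.3 and 75.3 in WT, against 44.2 and 44.7 in KO and 45.0 and 44.9 in WT for regions without a start. The difference was 31.1 ± 0.701 points (SD over 4 libraries; higher in 4 of 4; exact sign-flip permutation p = 0.125, the smallest possible). Regions with a start of their own gene had medians of 78.8 and 77.9 in KO and 78.4 and 78.1 in WT. Those with only other starts had 53.8 and 54.4 in KO and 55.7 and 51.5 in WT. Regions with a start were also wider (median 434 bp against 254 bp without), and the part of width was not tested. Of the regions with a start, 27.6% had a mean percentile above 90, against 4.63% of those without. Among the 1938 regions above 90, 357 (18.4%) held a start, and among the 79 above the 99th percentile, 31 did.

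Most starts inside genes had no peak in these cells. Of 6806 RefSeq starts that lay more than 1 kb inside coding genes, 1494 (22.0%) fell in an intragenic region and 4779 had no peak in any library. Windows of 250 bases before to 50 after the start were searched on both strands for 7 motifs, and matches of different motifs may overlap. The ETS motif CCGGAAG was in 13.2% of windows whose start lay in an intragenic region, 2.28% of internal windows without a peak and 8.92% of all 32619 windows. SP (GGGCGG) was in 58.2%, 16.8% and 35.9%, and CRE (TGACGTCA) in 2.54%, 0.565% and 1.80% of the same 3 sets. These motifs of housekeeping promoters were more frequent at the open internal starts, whose windows were also richer in G and C (median 60% of bases, against 49.3% without a peak and 53% over all). NFY (CCAAT) hardly differed, at 34.7%, 34.4% and 37.6%. The other motifs were less frequent at open starts than at those without a peak: RUNX (TGTGGT) was in 14.5%, 19.5% and 16.6%, an arm of the palindromic Maf recognition element (TGCTGA) in 17.3%, 23.7% and 19.5%, and AP-1 (TGANTCA) in 5.76%, 9.23% and 7.85%. A match is a stretch of letters and not evidence of binding, and the part of base composition was not tested.

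The 10 tallest regions held no annotated start at all. The tallest was in Peak1, a pseudokinase gene, at chr9:56223611-56223959, with a −log10 q of 879.0 and 949.3 in KO and 617.7 and 896.7 in WT. The next lay in Lama1 (a laminin chain), at chr17:67741362-67741602, with 831.3 and 715.3 in KO and 680.7 and 783.6 in WT, and in Flt1 (a VEGF receptor), with 763.0 and 656.7 in KO and 606.1 and 757.6 in WT. The others lay in Zc3h7a, Gphn, Uggt2, Cntnap5b, Bicdl1 and Tex14, which held 2 of them. Flt1 and Lama1 are best known from vessels and basement membranes. All 10 were above the 99th percentile in each library, and their KO minus WT differences ran from −0.018 to 0.118 points.

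Intragenic regions were spread over many genes. Of 21627 coding genes, 19186 were long enough to have an interior (the gene body without its outer 1 kb at either end), and 9665 of them (50.4%) held at least 1 intragenic region. Genes with 10 or more numbered 767 and held 12616 regions (35.6%), while 420 of the 2359 genes with over 100 kb of interior (17.8%) held none. The number per gene followed the length of the interior (Spearman's rho 0.58 over 19186 genes, a description across genes that share the 4 libraries). Over all genes there were 3.58 regions per 100 kb of interior. By chromosome the density ran from 1.03 on X to 5.15 on chromosome 11.

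The genes with the most regions were long. Wwox, an oxidoreductase gene at a fragile site, held 53, Arhgap26 held 52, Foxp1 and Gse1 held 51 each, Tiam1 (a Rac exchange factor) held 46, and Nav2 and the zinc transporter gene Slc39a11 held 44 each. Arid1b (a subunit of a chromatin remodelling complex), Maml3 (a Notch coactivator), Rere and Rora held 43 each, Pde4d and Zmiz1 held 41, and Itpr1 and Sox5 held 40. Per length they differed widely, with 19.8 regions per 100 kb in Zmiz1 and 3.15 in Pde4d. Within each gene the heights spread over nearly the whole scale, as in Foxp1, where the mean percentile of single regions ran from 5.73 to 85.2, and in Arhgap26, from 6.39 to 99.6.

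The densest genes were short. Among genes with at least 5 regions, Tgif1, a homeobox repressor gene, came first with 81.9 per 100 kb (6 regions in an interior of 7.33 kb). Fxyd5 followed with 78.9, Midn with 57.9, Csrnp1 with 51.8 and Dusp4, a phosphatase of MAP kinases, with 48.6 per 100 kb. Slfn5, Ubtf, Trim8, Def6 and Ubxn11 had 43.5, 41.0, 38.00, 36.5 and 35.9. Def6 encodes an exchange factor downstream of the T cell receptor. Ubtf encodes a factor of ribosomal RNA transcription. In it 4 of 7 regions ranked lower in both KO libraries than in both WT libraries, and 0 ranked higher. Ubxn11 likewise had 4 lower and 0 higher of 8. The rest of these genes had no such lean. Def6 had 1 lower and 3 higher, Slfn5 1 and 2, and Trim8 0 and 1. Counts were equal in Tgif1, Midn and Dusp4 (1 and 1), Fxyd5 (2 and 2) and Csrnp1 (0 and 0). Over all regions called in every library 20.6% were lower and 21.1% higher.

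Along genes the regions thinned out with distance from the 5′ end, while from the 3′ end their density first rose and then fell. For 27955 regions in a single gene of known strand, placed by their midpoints, the density was 8.39 per 100 kb at 1 to 2 kb from the 5′ end, 5.35 at 2 to 5 kb, 4.80 at 5 to 10 kb and 4.57 at 10 to 20 kb. It was 4.20 at 20 to 50 kb, 3.78 at 50 to 100 kb, 2.94 at 100 to 200 kb and 1.85 at 200 to 500 kb. Measured from the 3′ end, the bin of 1 to 2 kb had 3.71 per 100 kb and that of 5 to 10 kb had 4.63. The rise at the edge was thus on the 5′ side. Farther in, both sides fell off alike, with 4.11, 3.22 and 1.90 per 100 kb at 50 to 100, 100 to 200 and 200 to 500 kb from the 3′ end. Only long genes reach the far bins, so distance and the kind of gene cannot be told apart there. Internal starts were more frequent near the 5′ end too: 16.9% of the regions 1 to 2 kb from it held one, against 1.30% at 200 to 500 kb. The median of the mean percentiles stayed between 41.7 and 46.7 in all 8 bins.

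**Figure D2:**
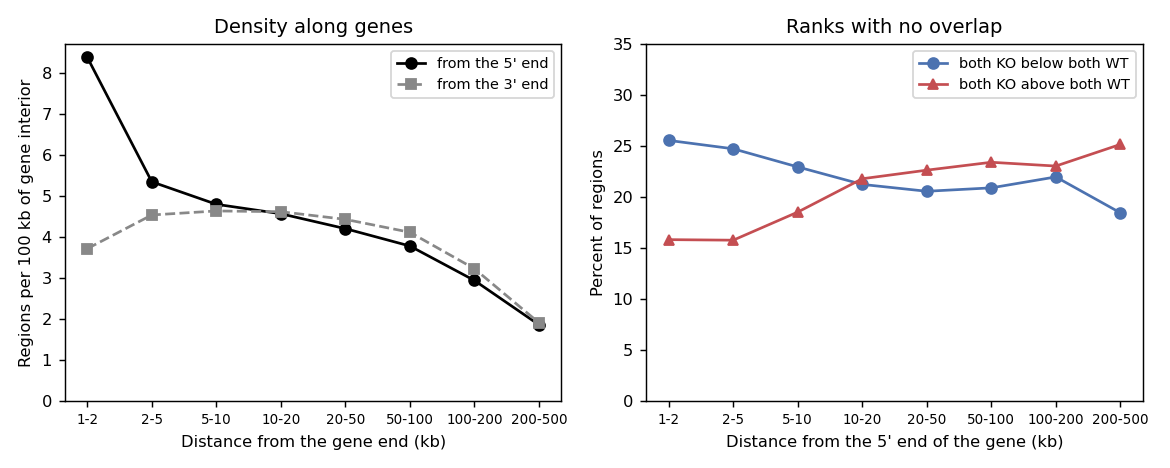
Left, intragenic regions per 100 kb of gene interior against the distance of their midpoint from the 5′ end (circles) or the 3′ end (squares) of the gene, in kb bins of unequal width. Right, the percent of regions in each bin whose 2 KO percentiles both lay below (circles) or above (triangles) both WT percentiles; lower calls ran from 25.5% in the first bin to 18.4% in the last, and higher calls from 15.8% to 25.1%.

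Between genotypes, the ranks were compared region by region, and a region was called lower or higher in KO when its 2 KO percentiles both lay below or above both WT percentiles. With 2 libraries against 2 no single region can be tested (smallest exact permutation p 0.333), so these are counts. Of the intragenic regions 7590 (21.4%) were lower in KO and 7618 (21.5%) higher. Over all 78650 regions called in every library the shares were 20.6% lower and 21.1% higher, so the intragenic shares were near the background. The median distance between the 2 KO libraries was 6.68 points and between the 2 WT libraries 6.86 points, while the median absolute KO minus WT difference was 6.31 points. The last value is between means of 2 libraries, so it is not on the same footing as the distances between single libraries.

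Large differences were few and lay more often on the lower side. KO ranks lay below both WT ranks by 25 or more percentile points in 423 regions (1.19%; background 0.912%) and above both by as much in 172 (0.485%; background 0.45%). When the genotype means had to differ by 50 points or more, 106 regions were lower in KO (background 0.207%) and 4 were higher (background 0.0114%). Lower regions were the more numerous over all shared regions too. By 25 points the excess depended on WT 2. Without that library the regions were chosen anew and a single WT value had to be passed. Of 36506 such regions, 959 were lower and 927 higher (background 2.23% and 2.40%). By 50 points the excess was smaller without WT 2 but remained, with 105 lower and 46 higher. The background by 50 points was not computed for that setting. Without any other library, with regions again chosen anew, lower regions outnumbered higher ones by 25 points. They were 832 against 517 without KO 1 (background 1.87% and 1.27%) and 1092 against 726 without KO 2 (background 2.34% and 1.86%). Without WT 1 they were 912 against 597 (background 1.77% and 1.35%), so all shared regions leaned the same way. For scale, the 2 KO libraries themselves lay 50 or more points apart in 22 regions and the 2 WT libraries in 19.

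**Figure D3:**
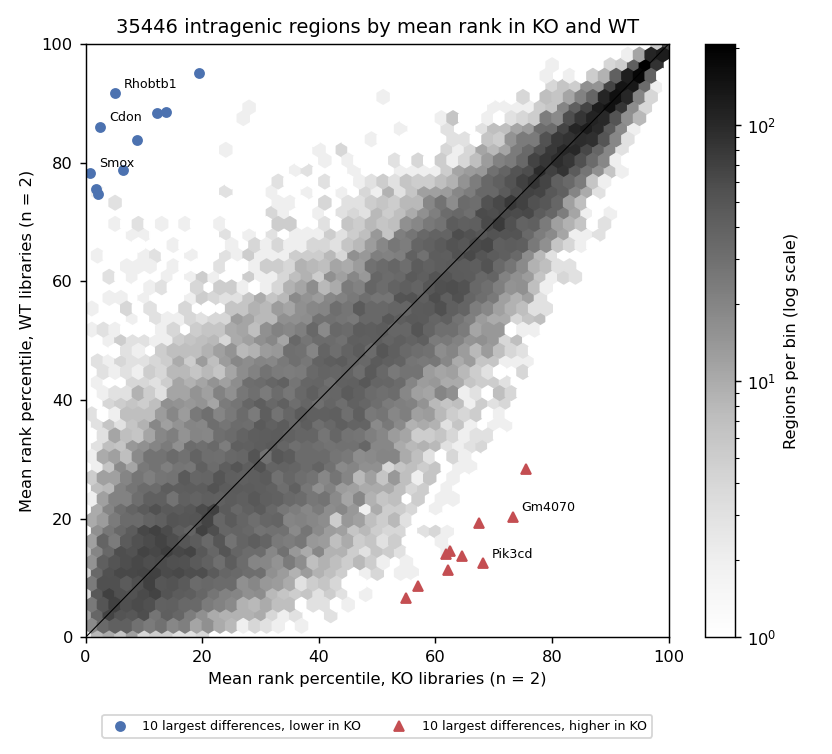
Mean rank percentile of the KO libraries (horizontal axis) and of the WT libraries (vertical axis) for 35446 intragenic regions, as grey hexagons shaded by the number of regions on a log scale. Circles are the 10 regions with the largest KO minus WT difference below 0 and triangles the 10 with the largest above 0; the line marks equal ranks, and the outlying points above it are more numerous than those below it.

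The 423 regions that were lower by 25 points were chosen for that gap, so their medians only describe where on the scale it lay. Their median percentile was 14.1 and 15.5 in KO and 61.8 and 63.2 in WT. The 172 higher ones had medians of 54.5 and 53.4 in KO and 15.3 and 17.9 in WT. These regions lay at a median of 18.3 kb (lower) and 24.0 kb (higher) from the nearer gene end, against 17.3 kb over all intragenic regions. Of the lower ones 2 held a start of their own gene, and of the higher ones 2. Genes with at least 2 lower regions numbered 28, and genes with at least 2 higher regions 4.

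The largest difference was in Rhobtb1, which encodes a BTB domain protein, at chr10:69160927-69161324. Its −log10 q was 3.17 and 5.77 in KO and 71.1 and 167.6 in WT, and its percentiles were 3.102 and 6.85 in KO and 90.01 and 93.4 in WT. A tall WT site was thus near the bottom of the ranks in both KO libraries. In Cdon (a hedgehog co-receptor) the region at chr9:35430501-35430907 had percentiles of 3.102 and 1.91 in KO and 85.1 and 87.0 in WT. In Smox (spermine oxidase) the region at chr2:131502007-131502311 had 0.228 and 1.32 in KO and 75.4 and 81.2 in WT. These regions were chosen for the size of such gaps, so the lack of overlap is no separate result.

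Serinc5, a membrane protein gene known for restriction of retroviruses, followed with percentiles of 3.102 and 21.4 in KO and 83.6 and 93.2 in WT. The others among the 10 were in Pde6a, Hapln3, Slc16a7 (a monocarboxylate transporter), Rreb1 (a zinc finger factor of the Ras pathway), Pak2 (a kinase activated by Rac and Cdc42, used in thymocyte development) and Metap2 (a methionine aminopeptidase). Their KO minus WT differences ran from −75.8 to −72.2 points. In Pak2 the region at chr16:32056131-32056344 had 1.70 and 2.62 in KO and 67.4 and 82.0 in WT. In none of the 10 did a KO library rank above 28.8.

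On the other side, the largest difference was in Pik3cd, which encodes the PI3 kinase catalytic subunit δ of lymphocytes, at chr4:149663884-149664403. Its −log10 q was 36.9 and 36.4 in KO and 4.69 and 6.58 in WT, with percentiles of 71.4 and 64.8 in KO and 16.9 and 8.05 in WT. The region was thus of middle height in KO and weak in WT. Gm4070 followed with percentiles of 76.4 and 70.1 in KO and 1.96 and 38.6 in WT, where the 2 WT libraries lay far apart. The others were in Clip4, Catspere2, Pde7b (a cyclic AMP phosphodiesterase), Mpp6, Vwa3b, Tulp4, Hmox2 (a heme oxygenase, with 2 annotated starts in the region) and Rad18 (a DNA repair ubiquitin ligase), with differences of 47.1 to 50.8 points.

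**Figure D4:**
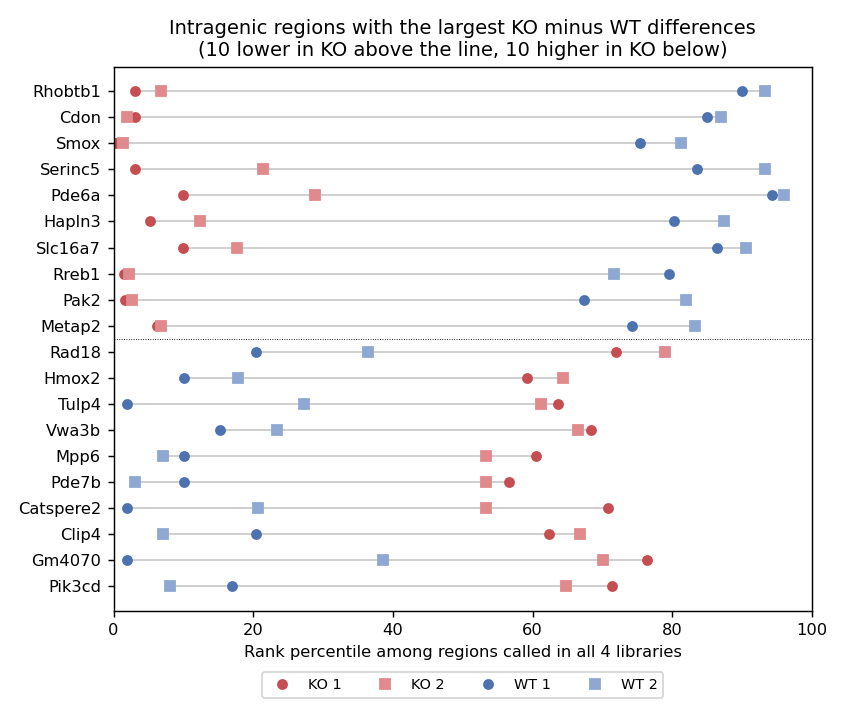
Rank percentile in each library (horizontal axis) of the 10 intragenic regions lowest in KO (above the dotted line) and the 10 highest (below it), named by gene; red points are KO libraries, blue points WT libraries, and the grey bar spans the 4 values. In Rhobtb1 the KO points were at 3.102 and 6.85 and the WT points at 90.01 and 93.4, and in Pik3cd the KO points were at 71.4 and 64.8 and the WT points at 16.9 and 8.05.

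Closer to the 5′ end more regions were lower in KO. At 1 to 5 kb, 25.01% of 3450 regions were lower and 15.8% higher, and at 50 to 500 kb, 20.7% of 10427 were lower and 23.6% higher. Over all shared regions the shares were 20.6% and 21.1%, so the lower share of the far set was that of the background. Shared regions at gene ends, with 19.9% lower and 16.9% higher, leaned the same way as the near set. Lower minus higher was 9.25 points in the near set, and 5.88 to 16.6 points with any 1 library left out. In the far set it was −2.88 points, and −5.61 to −2.24 points with any 1 library left out, so both signs were kept. No test over libraries was made of this.

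Genes of T cells were rich in intragenic regions. The 22 genes of T cell receptor signalling and the T cell surface had 11.1 intragenic regions per 100 kb of interior, and the 25 T lineage transcription factors held 292, or 10.9 per 100 kb, against 3.58 over all genes. The 28 genes of the type 17 γδ program held 196 (7.60 per 100 kb), the 20 genes of the type 1 program 63 (8.70) and the 21 MAF, CNC and AP-1 factors 57 (10.3). The 20 chromatin regulators held 151 (7.01) and 20 genes of leukocyte migration 118 (4.88). Markers of other cells a thymic sort could hold were at 3.36 (B cell, 35 regions), 4.03 (myeloid, 17), 2.46 (erythroid, 13) and 6.23 per 100 kb (thymic epithelium, stroma and endothelium, 26). The 20 long genes of neurons held 61 in 29386 kb, or 0.208 per 100 kb. These pooled densities follow the longest genes of each list. The median gene had 12.7 per 100 kb in the type 17 list, 12.03 in the T cell receptor list, 11.9 in the T lineage list, 7.42 in the type 1 list and 0 in the stromal list, against 0.301 over all genes.

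**Figure D5:**
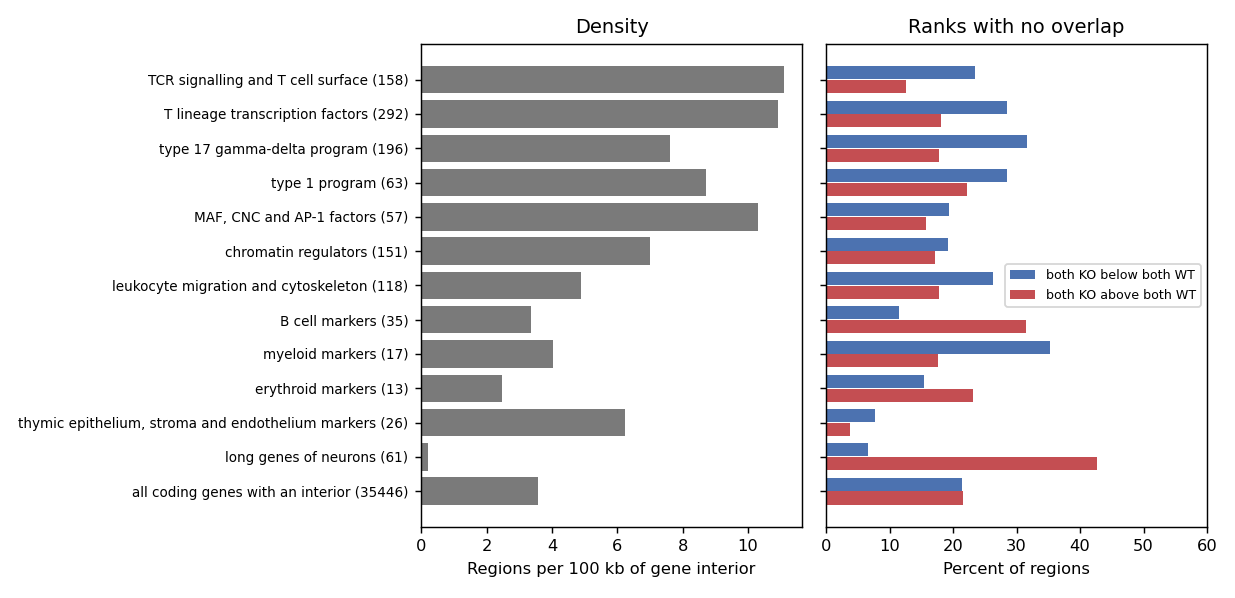
For 12 gene lists and all coding genes, with the number of intragenic regions in brackets: left, regions per 100 kb of gene interior; right, the percent of those regions with both KO percentiles below (blue) or above (red) both WT percentiles. The T cell lists had 10.9 and 11.1 regions per 100 kb and the long genes of neurons 0.208; in the type 17 list 31.6% were lower in KO and 17.9% higher.

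In the type 17 γδ program, lower calls outnumbered higher ones. Of its 196 regions, 62 (31.6%) were lower in KO and 35 (17.9%) higher, against 20.6% and 21.1% over all shared regions, with a median difference of −2.23 points against 0.061 over all. With 1 library left out the regions were chosen anew from the other libraries, so the counts are not shares of the 196. They were 82 to 97 lower and 56 to 73 higher, more lower than higher each time. Over all shared regions 33.9% to 36.4% were then lower and 35.2% to 36.4% higher. Of the 196, 3 were lower and 0 higher by 25 points. The list was chosen with earlier results of these libraries known, so its direction is a description. Blk, Il23r, Il7r, Sox13, Ikzf3, Zap70, Tbx21, Lamc1, Xrra1, Stard13 and Glis3 below were chosen after their values were seen.

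Rora, which encodes the nuclear receptor RORα, held 43 regions, 13 lower and 8 higher. Their medians were 31.2 and 35.4 in KO and 40.9 and 43.4 in WT, and single differences ran from −35.8 to 26.6 points. Sox13, an early factor of the γδ lineage, held 8, of which 4 were lower and 0 higher. Its region at chr1:133412560-133412885 had percentiles of 52.8 and 27.6 in KO and 81.0 and 79.7 in WT, which did not overlap. Sox5, its relative, held 40, with 9 lower and 12 higher. Zbtb16, which encodes PLZF, held 23 (8 lower and 4 higher), and Etv5, an ETS factor gene, held 8 (0 lower and 2 higher).

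Blk, a Src family kinase gene of γδ cells that make IL-17, had 7 regions, 5 lower and 0 higher in KO. The region at chr14:63405144-63405384 had percentiles of 4.50 and 5.45 in KO and 27.4 and 32.2 in WT. The tallest one, at chr14:63377215-63377762, had 87.7 and 91.5 in KO and 95.8 and 96.2 in WT. Near the top of the scale percentiles leave little room for a difference, and the −log10 q of the tallest one was 76.9 and 117.6 in KO and 122.3 and 224.1 in WT.

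Cytokine receptor genes of the program held both directions. Il1r1, an IL-1 receptor gene, held 12 regions (5 lower and 2 higher), and at chr1:40283846-40284328 the percentiles were 57.3 and 57.0 in KO and 88.0 and 89.4 in WT. Il23r, the IL-23 receptor gene, held 5 (2 lower and 1 higher). Its region at chr6:67483076-67483390 had 15.9 and 45.5 in KO and 65.6 and 74.9 in WT, the widest difference of the gene. The region at chr6:67475602-67475926 had 39.9 and 16.3 in KO and 65.9 and 58.1 in WT. The higher one, at chr6:67424904-67425266, had 81.2 and 84.2 in KO and 78.1 and 74.0 in WT, so 1 gene carried both directions. Il7r, the IL-7 receptor gene whose locus drives the Cre of both genotypes, held 3 (1 lower and 1 higher). The lower one, at chr15:9523972-9524318, had 0.282 and 9.32 in KO and 36.9 and 52.1 in WT. The higher one, at chr15:9528280-9528567, had 71.2 and 72.4 in KO and 67.1 and 57.9 in WT. Il17a, Il17f, Tmem176a, Tmem176b and Maf, the deleted gene, held none. Their interiors were short, at 1.59, 6.13, 1.88, 10.1 and 1.64 kb in that order, so the lack of a region there says little.

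Among the T lineage factors 83 of 292 regions (28.4%) were lower in KO and 53 (18.2%) higher, against 20.6% and 21.1% over all shared regions. With 1 library left out 123 to 143 were lower and 80 to 118 higher, among regions chosen anew, so these are not shares of the 292. The shares over all shared regions were then those given above, 33.9% to 36.4% lower and 35.2% to 36.4% higher. Foxp1, a forkhead gene, held 51 (8 lower and 11 higher), Runx1 held 30 (12 and 4), Tox held 24 (5 and 5), Tcf12, an E protein gene, held 20 (7 and 3) and Ets1 held 19 (6 and 4). In Runx1 the region at chr16:92764752-92765053 had percentiles of 7.67 and 27.3 in KO and 63.1 and 55.4 in WT, the widest difference of the gene. Ikzf3, which encodes the Ikaros relative Aiolos, had 9 regions, 7 lower and 1 higher, with medians of 45.5 and 49.7 in KO and 64.4 and 62.0 in WT. Cbfb held none, and Id2 and Id3, which also held none, have next to no interior under the rule.

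In the list of T cell receptor signalling and surface genes 37 regions (23.4%) were lower and 20 (12.7%) higher, so the lower share was near that over all shared regions. Of these regions 57 to 78 were lower and 43 to 54 higher with 1 library left out. Cd247, which encodes the CD3 zeta chain, held 16, with 8 lower and 0 higher. Its region at chr1:165801981-165802379 had percentiles of 7.26 and 16.03 in KO and 65.8 and 76.7 in WT, and that at chr1:165863357-165864280 had 35.1 and 12.4 in KO and 63.8 and 73.2 in WT. Both sites were well above the middle in WT and below it in KO. Zap70, the kinase that binds the phosphorylated zeta chain, had 5 regions, 3 lower and 0 higher, and the one at chr1:36779400-36779883 had 28.4 and 6.85 in KO and 65.5 and 74.6 in WT. Fyn held 26 (5 lower and 4 higher), Prkcq 18 (2 and 4), Ptprc 12 (1 and 1) and Themis 10 (0 and 4), so the genes of the list did not move alike. Lat held none.

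The type 1 program, of cells that make interferon-γ, had 18 lower (28.6%) and 14 higher (22.2%) among 63 regions, against 20.6% and 21.1% over all shared regions. Runx2 held 24 (6 and 6), Stat4 13 (3 and 4), Il12rb2 9 (1 and 2), and Hopx and Il12rb1 3 each. Tbx21, which encodes T-bet, had 3 regions, and all were lower in KO, with differences of −17.8 to −9.37 points. Of the MAF, CNC and AP-1 factors' 57 regions 11 were lower (19.3%) and 9 higher (15.8%), with 26 in Bach2 (5 and 3), 7 in Bach1 (2 and 0) and 5 in Batf (0 and 1). Of the chromatin regulators' 151, 29 were lower (19.2%) and 26 higher (17.2%), close to the shares over all shared regions. Of the 118 in migration genes 31 were lower (26.3%) and 21 higher (17.8%), with 32 in Elmo1 (8 and 8).

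Long genes of neurons went the other way: 26 of 61 regions (42.6%) were higher in KO and 4 (6.56%) lower. Over all shared regions 21.1% were higher and 20.6% lower. With 1 library left out, among regions chosen anew, 31 to 44 were higher and 8 to 15 lower. Over all shared regions 35.2% to 36.4% were then higher and 33.9% to 36.4% lower. Cdh13, a cadherin gene, held 13, with 9 higher and 0 lower, and its medians were 47.1 and 32.1 in KO and 20.4 and 26.3 in WT. Cntnap2 held 10 (3 higher and 0 lower) and Nrxn3 9 (4 and 0). Of the 35 regions in B cell genes 11 were higher (31.4%) and 4 lower (11.4%), with 14 in Ebf1 (3 higher and 2 lower) and 6 in Bank1 (5 and 0). Myeloid genes had 3 higher (17.6%) and 6 lower (35.3%) of 17. Erythroid genes had 3 (23.1%) and 2 (15.4%) of 13, and stromal genes 1 (3.85%) and 2 (7.69%) of 26. Of the 16 B cell genes 8 held an intragenic region, of the 16 myeloid genes 7, of the 14 erythroid genes 6 and of the 16 stromal genes 7. None of these 4 marker lists had a region lower or higher by 25 points, which at 0.912% and 0.45% over all shared regions is near the background for lists of this size.

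Some genes held several large differences. Lamc1 (a laminin chain), Mad1l1 (a spindle checkpoint gene), Tenm4, Tshz2, Vps13d and Xrra1 each held 3 regions lower in KO by 25 points or more. Mad1l1 and Tenm4 each also held 1 region higher in KO by as much. In Xrra1, 3 of its 6 regions were lower by that much, and the medians over all 6 were 41.6 and 44.3 in KO and 70.0 and 79.7 in WT. In Lamc1 the region at chr1:153252902-153253192 had 14.1 and 41.4 in KO and 86.4 and 89.4 in WT, and the region at chr1:153299551-153299786 had 33.2 and 40.4 in KO and 78.6 and 82.8 in WT. Stard13, a lipid transfer domain gene, and Glis3, a zinc finger factor gene, held 2 higher ones each. In Stard13, 11 of 14 regions were higher in KO and 1 lower, with medians of 60.6 and 58.7 in KO and 38.2 and 37.5 in WT.

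Regions at the limits of the rule were of all heights. The widest regions kept, of 999 bp, were in Spats2, with percentiles of 66.8 and 75.04 in KO and 76.7 and 80.4 in WT, and in Fam110b, with 88.8 and 80.9 in KO and 87.2 and 89.7 in WT. The narrowest left out, of 1000 bp, were in Fstl3, with 90.8 and 92.6 in KO and 94.1 and 91.8 in WT, and in Myo3a, above the 99th percentile in each library. By distance the nearest kept, at 1001 bp from a gene end, were in Taf8, with 84.4 and 87.2 in KO and 85.4 and 81.6 in WT, and Togaram2, with 4.73 and 1.91 in KO and 3.35 and 7.14 in WT. The nearest left out, at 1000 bp, were in Gprin2, with 27.8 and 23.6 in KO and 16.9 and 21.5 in WT, and Nipbl, with 79.3 and 71.1 in KO and 65.6 and 74.1 in WT.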

How the data were processed

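The deposited files were 1 peak list per library (2 KO, 2 WT) in narrowPeak layout, called by the authors library by library. The submitters' processing notes list MACS2 2.1.1, deepTools 3.1.2, bedtools, Picard, Bowtie2 2.3.4.1, cutadapt and Trim Galore, with the builds GRCm38 and mm10. The sources used here give neither the role of each tool nor any shift of reads for the Tn5 cut or treatment of duplicates. Per peak, the deposited lists gave a whole-number score, a fold enrichment (ratio to the local background of the library), a −log10 p, a −log10 q and the summit's offset, all the authors' own values. The score and the −log10 p were not used to rank. The −log10 p and the fold gave the background pileup, under the Poisson model. Read depth is unknown, and the number of peaks and the background pileup stand in its place.

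Regions, ranks and counts were computed with Python 3.11.15, pandas 2.3.3, numpy 2.4.6 and scipy 1.17.1, and figures with matplotlib 3.10.9. The code was tested on simulated regions. Gene bodies came from RefSeq tables of GRCm38 without exons, so exon and intron positions are not given. All gene list entries were matched by symbol, and positions are 1-based. Ranks were taken within each library, which removes differences of scale but not of background. The alternatives tried were a −log10 q of at least 5, equal numbers of peaks, coverage of at least 0.5 of a region, ranks by fold, a width under 500 bp, 5 kb from gene ends, all gene types, autosomes only, the replicate block and each library left out in turn. The counts past 25 or 50 points, those of the lists, and the sets near and far from the 5′ end were added after seeing the data. The intragenic regions and the gene lists were chosen with earlier results of these data known.

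The genes named were the 15 with the most regions, the 10 densest with at least 5, the 10 tallest regions, the 10 lowest and the 10 highest in KO without overlap, up to 5 genes per list, the genes of the type 17, T lineage and T cell receptor lists without a region, Maf, and the regions at each limit. Some genes that the rule or the lists name are not reported here. Replicate numbers occur in both genotypes. Deviations of same-numbered libraries from their genotype means had a correlation of 0.0396 over intragenic regions, and the labels name no shared litter, so the numbers were not treated as pairs.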

Additional observations from a re-analysis of the deposited data

Results flagged for a closer look

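Peaks outside chromosomes 1 to 19 and X entered no comparison. They numbered 462 in KO 1 and 312 in KO 2, and 413 in WT 1 and 387 in WT 2, all above the limit of 3 that a count of 0 allows. On the Y chromosome there were 134 and 95 in KO and 82 and 93 in WT.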

How the results depend on the processing

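The share of shared regions under 1000 bp that were intragenic was 45.4%. It was 43.9% with a −log10 q of at least 5, 44.9% with equal numbers of peaks, 44.9% with at least 0.5 of the region covered, 47.6% under 500 bp, 36.2% beyond 5 kb from gene ends, 50.05% with all gene types, and 45.4% to 46.1% with 1 library left out. The number of regions ran from 26410 to 42058. With 1 library left out the regions were chosen anew (36506 to 42058) and fewer values had to meet a limit. Counts rose, except that of regions lower by 50 points without WT 2 (105 against 106). Lower regions were 12596 to 14309 (background 33.9% to 36.4%) and higher ones 13121 to 15140 (background 35.2% to 36.4%). By 25 points 832 to 1092 were lower (background 1.77% to 2.34%) and 517 to 927 higher (background 1.27% to 2.40%). By 50 points 105 to 149 were lower and 10 to 46 higher, but the background by 50 points was not computed for any alternative. With 0.5 of the region covered, 228 were lower and 104 higher by 25 points (background 0.639% and 0.287%), and 33 lower and 0 higher by 50 points. With ranks by fold, 8 were higher by 50 points; the cause was not tested. The KO minus WT difference in the share of peaks ran from −6.88 to 2.13 points with 1 library left out, with its sign turned without WT 1. The summit difference ran from −1 to 2 bp, at 0 bp without KO 1 and −1 bp without WT 1. The intragenic minus gene end difference kept its sign in all alternatives run, from −27.6 to −13.9 points.

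Same-numbered libraries did not deviate together (correlation 0.0396). With the replicate block, KO against WT within each number, 10323 regions were lower and 10425 higher (background 28.5% and 29.0%). In the block 555 were lower and 271 higher by 25 points, and 106 lower and 4 higher by 50 points. The background of these last counts was not computed for the block, so they cannot be set against all shared regions. The share of peaks differed by −2.43 points in the block (exact permutation p = 1). In the T cell receptor list 49 were lower and 35 higher.

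Ranks place a region within its library and cannot show a change common to most regions. With 2 libraries a genotype no region was tested. Regions that lost all peaks in a library were not among those described, and no read depth is given.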
